A study of Homo sapiens with 6 samples.

Results

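Splicing needs serine- and arginine-rich proteins, called SR proteins, whose RS tails are phosphorylated and dephosphorylated as they enter the nucleus, leave storage speckles and act on pre-mRNA. SRPK1 and SRPK2 are SR protein kinases best known in the cytoplasm, where they prepare SR proteins for nuclear import. CLK1 to CLK4 are nuclear dual-specificity kinases that phosphorylate the same tails further and release SR proteins from speckles, and DYRK1A and DYRK1B are their relatives, which phosphorylate splicing factors, transcription factors and cell cycle regulators. CLK genes are known for making, beside the coding mRNA, a transcript that skips exon 4 and transcripts that keep the introns on either side of it.

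These 8 kinase genes were taken by name from 58478 genes of a transcript table, and the counts of each gene's Ensembl transcripts were summed. They hold 120 of the table's 251062 transcript rows. The libraries are labelled Huh7, a human hepatocellular carcinoma line. In the hypoxia group, 3 libraries came from cells kept at 1% oxygen for 24 h, and in the normoxia group 3 came from cells kept at 21% oxygen, all in the same medium. RNA was depleted of ribosomal RNA before sequencing, a preparation that does not select polyadenylated mRNA.

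The libraries held between 37621426 and 40794783 expected counts. All 8 known targets of hypoxia-inducible factors in a list, among them NDRG1, CA9 and EGLN3, rose, with log2 changes of 1.84 to 5.47. Most liver markers were at or near 0. Of 16 hepatocyte and hepatoma markers, 12 were under 1 CPM (read counts scaled to a common library size with TMM factors) in both groups, and AFP, APOA1, TTR and GPC3 had no count in any library, while CPS1, a urea cycle enzyme, averaged 1773 CPM in hypoxia and 2138 CPM in normoxia. Of the 4 markers tested, CPS1 fell and 3 rose (each with an edgeR adjusted p under 0.05): HNF4A, a liver transcription factor, averaged 7.01 CPM in hypoxia and 1.30 CPM in normoxia, TF, the transferrin gene, 12.1 CPM in hypoxia and 8.24 CPM in normoxia, and SERPINA1, a secreted protease inhibitor, 1.83 CPM in hypoxia and 0.067 CPM in normoxia. The values below therefore describe libraries labelled Huh7. Summed endothelial markers stood at 5.16 to 5.71 CPM in hypoxia and 2.40 to 2.90 CPM in normoxia, blood cell markers at 1.68 to 2.42 CPM in hypoxia and 1.01 to 1.15 CPM in normoxia, and fibroblast markers at 58.5 to 67.8 CPM in hypoxia and 72.6 to 75.3 CPM in normoxia. KDR, PTPRC and COL1A2, a defining marker in each of these lists, had no count in any library. Summed marker levels differed between the groups, and their part in the results was not tested. In bulk RNA, fewer cells of a type and less RNA per cell cannot be told apart.

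The exon on which the CLK results turn is shown first. Exon 4 is the fourth exon of the reference coding transcript of each CLK gene, lies wholly within the coding sequence, and has a length that leaves a remainder of 1 after division by 3, so that skipping it shifts the reading frame. Each line below gives exon 4 in capitals with 20 bases of intron on either side in lower case, 5′ to 3′ on the gene's strand, read from the GENCODE 29 transcripts (GRCh38), the intron bases from transcripts that keep the intron. They are printed so that the 4 exons can be compared.
CLK1, chr2:200860105-200860235, minus strand: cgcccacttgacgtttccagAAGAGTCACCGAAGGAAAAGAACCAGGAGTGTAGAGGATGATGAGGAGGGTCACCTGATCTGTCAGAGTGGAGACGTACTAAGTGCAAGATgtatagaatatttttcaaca
CLK4, chr5:178617324-178617454, minus strand: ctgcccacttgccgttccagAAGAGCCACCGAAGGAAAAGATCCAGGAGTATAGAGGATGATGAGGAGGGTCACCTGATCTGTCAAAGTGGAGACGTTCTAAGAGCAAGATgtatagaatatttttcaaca
CLK2, chr1:155268688-155268815, minus strand: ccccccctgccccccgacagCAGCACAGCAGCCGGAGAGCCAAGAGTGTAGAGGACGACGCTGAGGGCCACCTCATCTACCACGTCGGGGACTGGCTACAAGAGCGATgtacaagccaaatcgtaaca
CLK3, chr15:74622100-74622236, plus strand: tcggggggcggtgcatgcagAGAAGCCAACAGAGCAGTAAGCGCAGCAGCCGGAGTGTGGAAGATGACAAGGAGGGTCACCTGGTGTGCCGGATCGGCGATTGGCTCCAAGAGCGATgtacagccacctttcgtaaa
All 4 are flanked by ag upstream and gt downstream, the usual intron ends. The exons of CLK1 and CLK4 are both 91 bases long and identical at 85 positions, or 93.4%. Every other pair was identical at 62.6% to 66.3% of aligned positions. Reads from CLK1 and CLK4 could therefore have been divided between the 2 genes by the authors' estimation, and the split between them is uncertain.

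Of the 8 kinase genes, 6 rose in hypoxia and 2 fell by edgeR's quasi-likelihood test at an adjusted p under 0.05. Both SRPK genes fell, and all 4 CLK genes and both DYRK1 genes rose. Across the 17396 genes tested, 72.8% changed, with 36.5% risen and 36.3% fallen, so that a changed kinase is near what most genes did. In all 8 kinases the libraries of the groups did not overlap, which was also true of 75.7% of genes. The list's median log2 change was 0.84, beside 0.02 for all genes tested.

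**Figure D1:**
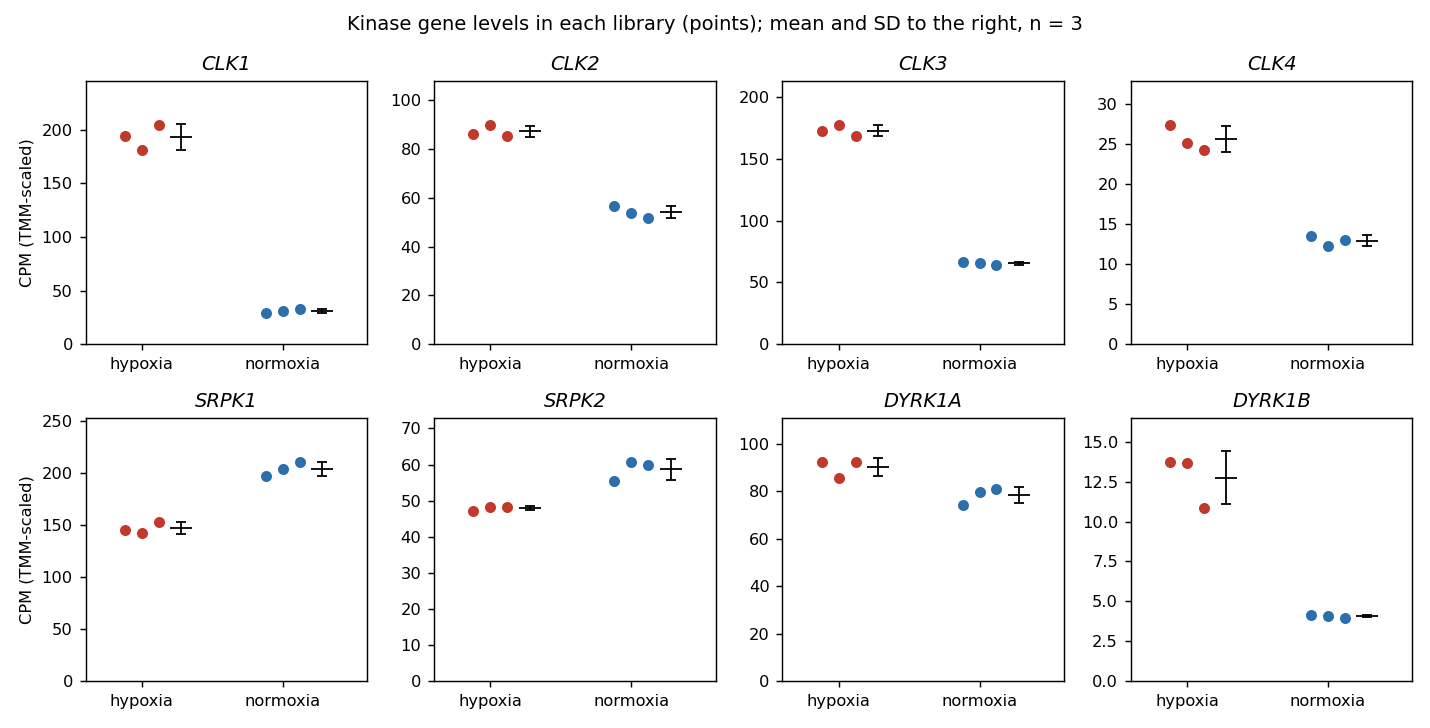
CPM of the 8 kinase genes (vertical axes, scaled with TMM factors, each from 0) in the 3 hypoxia libraries at left and the 3 normoxia libraries at right; black marks give the mean and SD. CLK1 shows the widest gap between the groups, SRPK1 and SRPK2 lie lower in hypoxia, and DYRK1A shows the narrowest gap.

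CLK1, named for its CDC2-like kinase domain, changed most. The gene lies on chromosome 2 (GRCh38, 200853009 to 200864744, minus strand). CLK1 had 194.1, 181 and 204 CPM in the hypoxia libraries C4, C5 and C6, against 28.9, 31.1 and 32.7 CPM in the normoxia libraries C1, C2 and C3. Every hypoxia library was far above every normoxia library. The log2 change was 2.64 ± 0.06 (SE, n = 3 per group; edgeR adjusted p = 8.5e-11), a 6.24-fold rise. A log2 change of 1 or more with an adjusted p under 0.05 was found for 17.5% of genes.

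CLK3 had 172, 177 and 168 CPM in hypoxia, against 66.4, 66.0 and 63.9 CPM in normoxia. The libraries within each group lay close together, and the log2 change was 1.40 ± 0.04 (edgeR adjusted p = 4.55e-10). CLK4, the closest relative of CLK1, had 27.4, 25.1 and 24.2 CPM in hypoxia, against 13.5, 12.2 and 13.0 CPM in normoxia. Its log2 change was 0.98 ± 0.08 (edgeR adjusted p = 6.1e-07). CLK2 had 86.3, 89.9 and 85.5 CPM in hypoxia, against 56.5, 54.0 and 51.6 CPM in normoxia. It rose least among the 4 CLK genes, by 0.69 ± 0.05 on the log2 scale (edgeR adjusted p = 3.0e-07).

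DYRK1B, also called MIRK, is known for holding cells in a quiescent state. It had 13.8, 13.7 and 10.8 CPM in hypoxia, against 4.13, 4.07 and 3.98 CPM in normoxia. The hypoxia libraries were more spread, and all lay above the normoxia libraries. The log2 change was 1.65 ± 0.12 (edgeR adjusted p = 3.3e-07).

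DYRK1A, a dosage-sensitive kinase gene of chromosome 21, had 92.2, 85.7 and 92.6 CPM in hypoxia, against 74.5, 79.8 and 81.0 CPM in normoxia. Its rise was the smallest of the 6, with a log2 change of 0.20 ± 0.05 (edgeR adjusted p = 0.0043). Scaled by library totals in place of TMM factors, the change was 0.05 with an adjusted p of 0.43 in edgeR, and on counts per length it was 0.07 with an adjusted p of 0.31 in limma. That change of scaling moved the median of all genes to -0.13, and it kept the direction of all 8 kinases.

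SRPK1 had 146, 142 and 153 CPM in hypoxia, against 197, 205 and 211 CPM in normoxia. Its log2 change was -0.47 ± 0.04 (edgeR adjusted p = 3.4e-06). SRPK2 had 47.2, 48.3 and 48.3 CPM in hypoxia, against 55.4, 60.8 and 59.9 CPM in normoxia. Its log2 change was -0.29 ± 0.05 (edgeR adjusted p = 0.00035). With TMM factors both falls were smaller than the rises of the CLK genes. With library totals the order changed, at -0.63 for SRPK1 and 0.54 for CLK2 on the log2 scale.

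Levels between genes were compared per length, as CPM per kilobase of transcript summed over protein-coding rows (not scaled by TMM). In hypoxia CLK3 stood highest at 68.8 ± 6.26 CPM per kilobase (SD, n = 3), followed by SRPK1 at 34.9 ± 2.19 and CLK1 at 33.5 ± 2.98, whose libraries overlapped. CLK2 followed at 22.8 CPM per kilobase, SRPK2 at 13.9, DYRK1A at 13.2, DYRK1B at 5.00 and CLK4 at 4.74, and both SRPK2 with DYRK1A and DYRK1B with CLK4 overlapped. In normoxia the order ran from SRPK1 at 48.3 ± 1.21 CPM per kilobase through CLK3 at 27.3, SRPK2 at 19.3, CLK2 at 15.1, DYRK1A at 13.5, CLK1 at 3.64 and CLK4 at 2.56 to DYRK1B at 1.92. There only CLK1 and CLK4 overlapped as neighbours. CLK3 and SRPK1 held the first place in one group each, and CLK1 was at rank 3 in hypoxia and rank 6 in normoxia. CLK1's level and rank depended on the rows summed: over all its rows it stood at 84.9 ± 5.59 CPM per kilobase in hypoxia, at rank 2 and overlapping CLK3 at the top, and at 16.4 ± 1.28 in normoxia, at rank 5 (SD, n = 3 each).

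Of the 120 transcript rows, 76 passed the filter on low counts and 44 did not. By edgeR's test 26 of them rose and 4 fell, which leaves 46 without a call, while 31.7% of the 63530 rows tested in the table changed, with 16.7% risen and 15% fallen. By GENCODE's transcript type, 13 of 24 retained-intron rows rose and none fell at an adjusted p under 0.05. The called share of retained-intron rows in the whole table was not computed. Over the genes tested, the ratio of retained-intron to protein-coding counts had a median log2 change of 0.28. Among 38 protein-coding rows, 10 rose and 4 fell, among 7 processed-transcript rows 2 rose, and among 7 rows annotated as nonsense-mediated decay (NMD) targets 1 rose. In each of the 30 called rows the libraries of the groups did not overlap, as in 51.3% of all rows tested. The row values are RSEM's estimates, in which reads shared by several transcripts are divided, and their error does not include that division.

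CLK1 gave 8 risen rows of 10 tested, of which CLK1-205 and CLK1-214 lost their call in 4 of the 6 fits that left out a single library and CLK1-204 in 5. CLK1-201, the reference coding transcript with all 13 exons, had 53.4, 57.7 and 64.9 CPM in hypoxia, against 1.78, 5.83 and 4.58 CPM in normoxia. Its log2 change was 3.85 ± 0.41 (edgeR adjusted p = 0.00094). CLK1-210, which keeps introns 3 and 4 and has no coding sequence annotated, had 91.8, 71.6 and 80.0 CPM in hypoxia, against 8.99, 9.98 and 10.9 CPM in normoxia, a log2 change of 3.03 ± 0.12 (edgeR adjusted p = 2.3e-05). It held the most counts of the CLK1 rows in both groups, with 42.2% of the gene's counts in hypoxia and 31.7% in normoxia. At 3208 bases it is longer than CLK1-201 (1847) and CLK1-204 (1682). Per length it was below CLK1-201 in hypoxia and below CLK1-204 in normoxia. CLK1-207, which keeps introns 4 and 7, rose by 1.94 ± 0.13 on the log2 scale (edgeR adjusted p = 0.00015).

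CLK1-204 skips exon 4, and its annotated reading frame covers 408 bases in place of the 1452 of CLK1-201. It had 8.17, 10.0 and 10.9 CPM in hypoxia, against 6.86, 6.95 and 6.42 CPM in normoxia. Its log2 change of 0.53 ± 0.14 passed the edgeR test (adjusted p = 0.035) but did not pass with library totals as scaling (0.40, adjusted p = 0.080), and leaving out C5 or C6 of hypoxia or any normoxia library gave 0.41 to 0.54 with adjusted p-values of 0.089 to 0.11. Over all alternative settings the log2 change of CLK1-204 ran from 0.36 to 0.62, and its call was lost in 8 and kept in 2. As a share of its gene, CLK1-204 held 5.07% in hypoxia and 21.6% in normoxia. The log2 ratio of CLK1-204 to all other CLK1 rows fell by 2.37 (limma adjusted p = 0.0087). This usage measure was chosen after the row values had been seen. Over all 58289 rows it called 3.25%, with 1.66% risen and 1.59% fallen, and over 79 kinase rows it called 4.

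**Figure D2:**
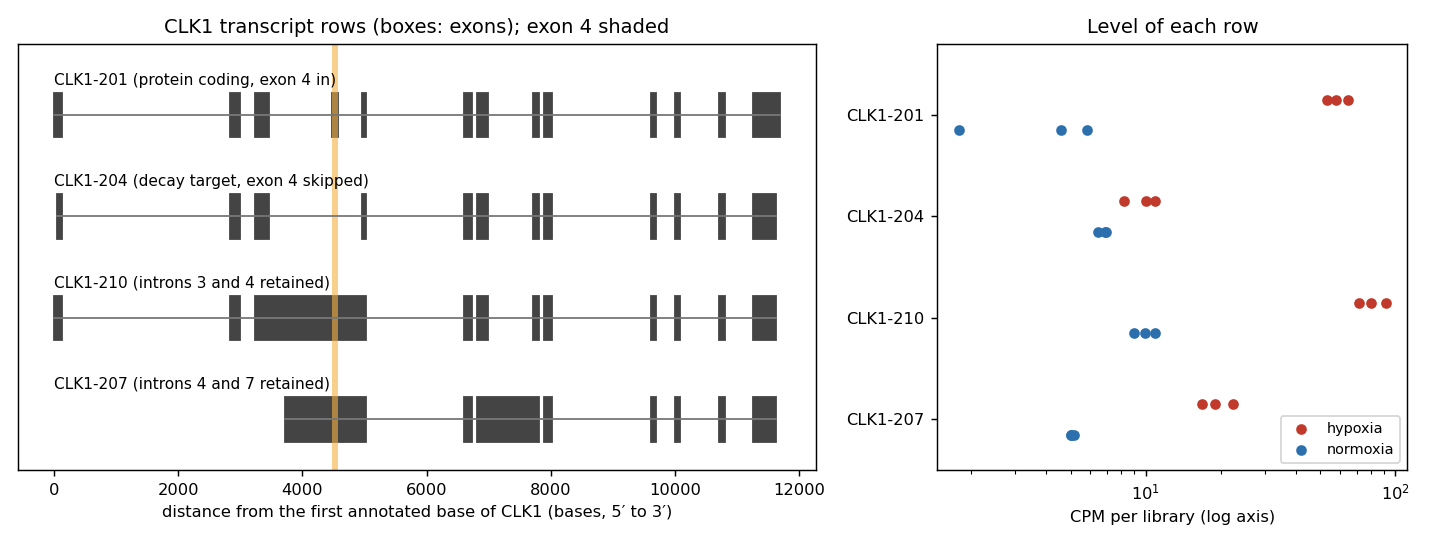
Left, exons (boxes) of 4 CLK1 transcripts by distance in bases from the gene's first annotated base, with exon 4 shaded; right, CPM of each in every library on a log axis, hypoxia above normoxia. The coding row CLK1-201 and the intron-retaining row CLK1-210 lie about an order of magnitude apart between the groups, and the exon-skipping row CLK1-204 lies close together.

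The other 3 rows called by usage were CLK3-212, which fell by 2.48 (limma adjusted p = 0.013), CLK4-208, which fell by 0.90 (limma adjusted p = 0.048), and CLK4-206. CLK4-206 was at 0.25, 1.20 and 0.60 CPM in hypoxia, against 0 CPM in the 3 normoxia libraries, too low for the edgeR test. It entered the usage fit through its hypoxia counts alone, so nothing is read from its call. It shares bases with the 7SK pseudogene RN7SKP70 on the same strand, as do CLK4-203, CLK4-209, CLK4-211 and CLK4-212. CLK3-212 was also the 1 CLK row that fell in level, with 2.22, 1.60 and 2.23 CPM in hypoxia, against 3.87, 4.25 and 4.14 CPM in normoxia. It overlaps EDC3, an mRNA-decapping gene on the opposite strand, and whether the counting used the strand is not given in the sources used here, so its count is uncertain.

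To compare exon 4 across the CLK genes, rows were sorted into those with exons 3, 4 and 5 spliced together, those joining exon 3 to exon 5, and those keeping intron 3 or 4. In CLK1, rows skipping exon 4 made up 11.6%, 13.3% and 13.0% of the spliced counts in hypoxia, against 54.7%, 51.2% and 47.1% in normoxia. Skipping was thus the commoner spliced form in 2 of the 3 normoxia libraries and the rarer one in every hypoxia library. The counts behind these shares were 2512 to 2835 per library in hypoxia and 498.4 to 534.2 in normoxia.

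In CLK4 the skipped share was 3.30%, 2.57% and 9.56% in hypoxia, against 19.7%, 20.7% and 24.3% in normoxia, from 276.3 to 408.2 counts per library in hypoxia and 161.6 to 178.8 in normoxia. CLK4-209, sorted as spliced in, and CLK4-212, sorted as skipping, share bases with RN7SKP70, so their counts are uncertain. In CLK2 it was 5.05%, 2.47% and 5.69% in hypoxia, against 11.7%, 10.0% and 11.5% in normoxia. In CLK3 it was 0.91%, 0.20% and 0% in hypoxia, against 4.71%, 3.01% and 3.53% in normoxia. The 0 of 3420 counts in hypoxia library C6 allows a share of up to 0.0877%. CLK3-223, a coding row that skips exons 4 and 5, belongs to none of these classes and was left out. It had 205.7, 391.6 and 198.1 counts in hypoxia, against 93.9, 88.3 and 20.7 in normoxia. That is more than the sorted CLK3 skipping rows held in every library but C3 of normoxia. With CLK3-223 counted as skipping, the CLK3 groups would overlap. By the classes used, every hypoxia library lay below every normoxia library in all 4 genes. How often such shares separate the groups over all genes was not computed. For gene CPM the groups did not overlap in 75.7% of genes.

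The mean differences, hypoxia minus normoxia, were -38.4 percentage points in CLK1, -16.4 in CLK4, -6.65 in CLK2 and -3.38 in CLK3. The CLK3 value leaves out CLK3-223. With 3 libraries a group the smallest p of a two-sided exact permutation test is 0.1, which each gene reached and which stayed at 0.1 after Benjamini-Hochberg adjustment over 8 tests, so this test cannot pass 0.05. These shares were also defined after the row values had been seen. With summed CPM per kilobase in place of counts the differences were -29.7 points in CLK4 and -6.18 in CLK3, so their size depends on the unit. Most skipping rows had no call of their own: CLK2-205 had a log2 change of -0.72 (edgeR adjusted p = 0.14) and CLK3-225 one of -3.79 (edgeR adjusted p = 0.072).

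**Figure D3:**
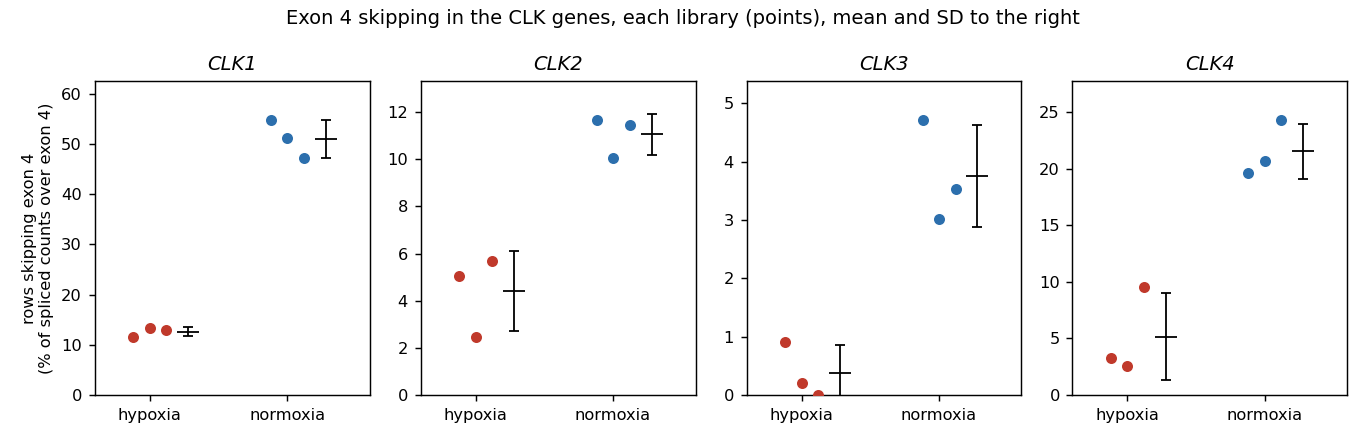
Share of spliced counts over exon 4 that skip it (vertical axes, percent, each from 0) for CLK1, CLK2, CLK3 and CLK4, with the 3 hypoxia libraries at left, the 3 normoxia libraries at right and the mean with SD in black. The hypoxia libraries lie below the normoxia libraries in each gene, at a mean of 12.6% against 51.0% in CLK1. CLK3-223, which skips exons 4 and 5, is not counted.

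Rows keeping intron 3 or 4 did not move in one direction. As a share of all rows that could be sorted, they held 56.6% ± 3.89 in hypoxia and 53.1% ± 0.69 in normoxia for CLK1 (SD, n = 3), 25.8% ± 1.13 in hypoxia and 17.5% ± 2.74 in normoxia for CLK3, 30.3% ± 0.91 in hypoxia and 29.01% ± 0.53 in normoxia for CLK2, and 35.3% ± 7.01 in hypoxia and 43.3% ± 1.46 in normoxia for CLK4. The groups did not overlap in any of them, with the same exact permutation p of 0.1. In CLK4 this class includes CLK4-203 and CLK4-206, which share bases with RN7SKP70, so the CLK4 shares are uncertain. CLK4-203 alone had 103.5, 104 and 115.5 of the 153.1, 181.2 and 183.4 CLK4 counts of this class in hypoxia. How often such shares separate the groups over all genes was not computed. The 2 CLK1 rows of this class, CLK1-210 and CLK1-207, rose by 3.03 and 1.94 on the log2 scale beside 2.64 for the gene, and their joint share was at least 52.7% of the sorted counts in every library.

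In CLK3, all 7 tested retained-intron rows rose, of which CLK3-227 lost its call without any library but C6 of hypoxia. CLK3-224, another of them, had 11.8, 31.5 and 12.5 counts in hypoxia, against 0, 2.2 and 0 in normoxia, and was not refitted with single libraries left out. CLK3-203, which keeps intron 3, had 17.1, 13.8 and 19.1 CPM in hypoxia, against 3.74, 1.65 and 3.48 CPM in normoxia, a log2 change of 2.49 ± 0.33 (edgeR adjusted p = 0.0021). CLK3-226, which keeps introns 3 and 4, rose by 1.63 ± 0.12 (edgeR adjusted p = 0.00023). The main coding row, CLK3-202, rose by 1.30 ± 0.06 (edgeR adjusted p = 3.3e-05), with 57.8% of the gene's counts in hypoxia and 60.8% in normoxia. None of the 6 CLK3 retained-intron rows in the usage fit passed the usage test at an adjusted p under 0.05.

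CLK4-201, the reference coding row, was the 1 CLK4 row of 9 tested that passed, with 11.1, 5.53 and 7.44 CPM in hypoxia, against 2.76, 1.71 and 1.86 CPM in normoxia (log2 change 1.93 ± 0.33, edgeR adjusted p = 0.0061). In CLK2, 4 of 7 rows rose: coding rows CLK2-201 and CLK2-203 by 0.97 and 0.81, and processed transcripts CLK2-206 and CLK2-207 by 0.97 and 0.71 on the log2 scale. CLK2-207 keeps intron 4 and held 28.4% of the gene's counts in hypoxia and 27.6% in normoxia.

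DYRK1B-201, its main coding row, had 9.99, 7.96 and 6.19 CPM in hypoxia, against 2.44, 3.08 and 1.83 CPM in normoxia (log2 change 1.71 ± 0.27, edgeR adjusted p = 0.0045). In DYRK1A 2 of 14 tested rows rose, the long coding row DYRK1A-221 by 0.92 and the retained-intron row DYRK1A-207 by 1.42 on the log2 scale, with the first at 0.42 on counts per length (limma adjusted p = 0.060), while the most abundant row, DYRK1A-224, had a log2 change of -0.04 (edgeR adjusted p = 0.78). The most abundant DYRK1A row was not among those that rose.

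SRPK1-204, the main SRPK1 row, had 118, 112 and 117 CPM in hypoxia, against 162, 172 and 179 CPM in normoxia (log2 change -0.56 ± 0.05, edgeR adjusted p = 0.00051). SRPK1-205 fell by 0.67 and SRPK2-214 by 0.45 on the log2 scale. The call of SRPK1-205 was lost without any library but C6 of hypoxia, and that of SRPK2-214 without C4 or C6 of hypoxia or C1 or C2 of normoxia (edgeR adjusted p of 0.064 to 0.11 and of 0.076 to 0.10). Exons of SRPK1, among them those of SRPK1-204 and SRPK1-205, overlap LHFPL5 on the opposite strand by 265 bases, CLK3-202 overlaps AC100835.1 by 180 and CLK3-215 overlaps AC100835.2 by 479, so reads there could be of either gene if the counting ignored strand. No SRPK row rose at an adjusted p under 0.05 among 17 tested.

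An unproductive ratio set the counts of retained-intron, NMD, non-stop decay and processed-transcript rows over those of protein-coding rows. In CLK1, unproductive rows held 66.9%, 62.7% and 63.0% of the counts in hypoxia, against 83.2%, 76.7% and 75.6% in normoxia, and the groups did not overlap. The log2 ratio changed by -1.04 ± 0.24 (limma adjusted p = 0.045). That call was lost without any 1 of the 6 libraries, with values of -0.83 to -1.17 and adjusted p-values of 0.070 to 0.12. With retained-intron rows alone as the unproductive class it was -0.63 with an adjusted p of 0.0998 in limma. Of 8290 genes tested, 11.2% changed, as 8.94% with a risen ratio and 2.22% with a fallen one, and the median change was 0.23, so CLK1 moved against the more common direction.

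The other 6 kinases tested did not pass. Their log2 ratio changes ran from -0.35 in CLK4 to 0.53 in SRPK2, and DYRK1B had too few unproductive counts to be tested. CLK2, CLK3 and CLK4 had 38.4%, 33.0% and 54.9% unproductive counts in hypoxia, against 40.9%, 27.7% and 60.9% in normoxia, while SRPK1, SRPK2 and DYRK1A held 6.21% to 10.9% in hypoxia and 4.48% to 8.08% in normoxia. Among these kinases a high unproductive share was thus seen in the CLK genes in both groups and not in SRPK1, SRPK2 or DYRK1A. It was not particular to CLK genes. Other kinases varied widely: PRPF4B held 73.3% in hypoxia and 69.9% in normoxia, and CDK12 8.39% in hypoxia and 7.29% in normoxia. The share over all genes was not computed, and these counts are not scaled by transcript length.

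**Figure D4:**
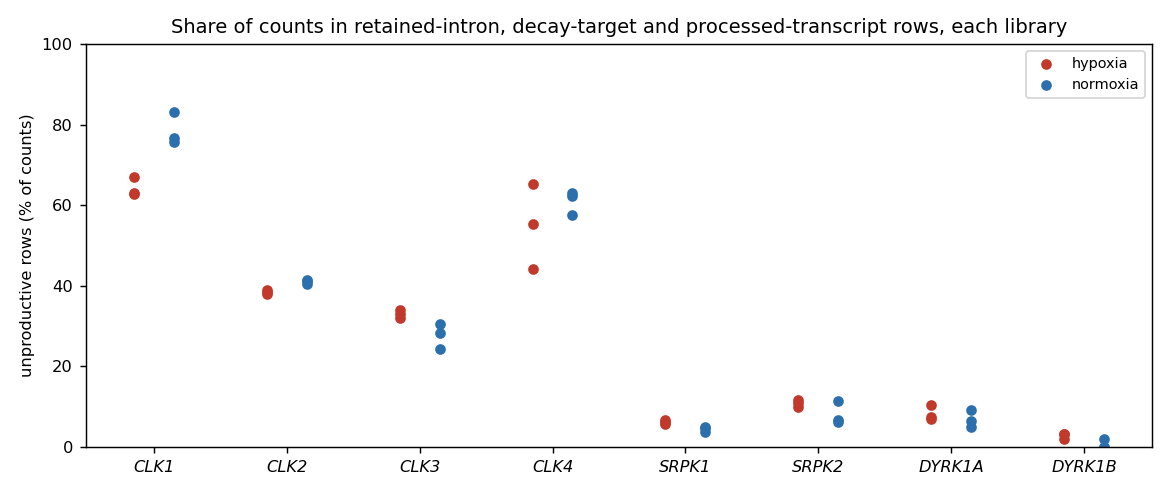
Percent of each kinase gene's counts in retained-intron, NMD-target and processed-transcript rows (vertical axis, 0 to 100) in each library, hypoxia at left and normoxia at right of each gene. The 4 CLK genes lie between 24.3% and 83.2%, and the hypoxia libraries of CLK1 lie below its normoxia libraries.

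The promoters of the 8 kinases were also read. RefSeq promoter windows (GRCh38.p14, 250 bases before to 50 after each start) matched all 8 genes with 18 windows. The core letters of a hypoxia response element, ACGTG or GCGTG on either strand, were found in 12 of the 18, against 48.4% of 35116 windows in all. The 18 are not independent: the windows of CLK1 overlap each other, and DYRK1A and SRPK2 supplied 6 and 4 of the 18. The difference from all windows was not tested. CACGTG reads ACGTG on both strands and counts as 2 overlapping matches. Among the kinases that rose, every window of CLK1, CLK2, CLK3, CLK4 and DYRK1B held a match, but only 2 of the 6 of DYRK1A did. Of the kinases that fell, SRPK2 had a match in 3 of 4 windows and SRPK1 none in its single window, which says only that these letters are not there. The parts of the CLK1 and DYRK1B windows upstream of every annotated exon follow, because these genes rose most, with matches in capitals as they read on the gene's strand.
CLK1, chr2:200864745-200864908, minus strand: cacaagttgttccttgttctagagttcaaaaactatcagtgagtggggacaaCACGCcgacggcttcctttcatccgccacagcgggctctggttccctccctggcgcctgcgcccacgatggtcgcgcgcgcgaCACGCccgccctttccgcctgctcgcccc
DYRK1B, chr19:39834202-39834412, minus strand: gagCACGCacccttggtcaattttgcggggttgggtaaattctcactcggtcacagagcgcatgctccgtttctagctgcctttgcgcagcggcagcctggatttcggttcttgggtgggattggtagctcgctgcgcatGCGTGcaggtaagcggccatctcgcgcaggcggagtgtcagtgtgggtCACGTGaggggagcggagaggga
The CLK1 stretch holds 2 matches and the DYRK1B stretch 4. A match describes the letters and is not a measured binding site.

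Genes around the kinases were read from 4 lists. The first held further kinases, among them DYRK, HIPK and CDK genes and PRPF4B, but also GSK3B, CSNK1D and AKT1. Of its 14 tested genes, 4 rose and 5 fell by edgeR's test and 5 had no call. Of all genes 72.8% were called, 36.5% risen and 36.3% fallen. The median log2 change of the 14 was 0.01. DYRK3, which dissolves condensates, averaged 34.4 ± 1.02 CPM in hypoxia and 60.7 ± 1.03 CPM in normoxia (SD, n = 3), a log2 change of -0.82. DYRK2 fell by 0.54 and PRPF4B, a kinase of the spliceosome, by 0.49, and DYRK4 rose by 0.67, each with an edgeR adjusted p under 0.05. Scaled by library totals, 3 rose and 7 fell.

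Among 13 tested SR proteins, the substrates of the CLK and SRPK kinases, 10 fell, 2 rose and 1 had no call, and the median log2 change was -0.42, beside 36.3% of all genes fallen, 36.5% risen and a median of 0.02. SRSF8, SRSF7, SRSF1 and SRSF2 fell most, by 1.46, 1.00, 0.99 and 0.98 on the log2 scale. SRSF5 and SRSF9 rose, by 0.60 and 0.26. The unproductive ratio rose in 5 of the 13, among them SRSF2 and SRSF5, and fell in 1, SRSF11, by the limma test, which called 8.94% of all genes risen and 2.22% fallen.

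Of 18 genes for SR protein phosphatases, nuclear import and RS-domain partners, 5 rose, 9 fell and 4 had no call, a called share near the 72.8% of all genes, and with library totals 3 rose and 12 fell. PPP1R10, a targeting subunit of protein phosphatase 1, averaged 49.3 CPM in hypoxia and 105 CPM in normoxia, a log2 change of -1.09. TNPO1, a nuclear import receptor, fell by 0.98, and the catalytic subunit PPP1CC fell by 0.77, while PNISR, an RS-domain protein, rose by 0.68. TNPO3, the import receptor of SR proteins, fell by 0.22.

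Of 18 tested partners and substrates of DYRK kinases, 8 rose, 8 fell and 2 had no call, beside 36.5% of all genes risen and 36.3% fallen. RCAN1, an inhibitor of calcineurin that DYRK1A phosphorylates, had 42.1, 37.4 and 42.2 CPM in hypoxia, against 9.39, 9.07 and 8.39 CPM in normoxia, a log2 change of 2.18 ± 0.08 (edgeR adjusted p = 1.35e-09). CDKN1B, a cyclin-dependent kinase inhibitor, rose by 1.24, and CCND1, the cyclin D1 gene, averaged 77.5 CPM in hypoxia and 179.9 CPM in normoxia, a log2 change of -1.22. NFATC1, a calcineurin-driven transcription factor whose nuclear export DYRK1A promotes, rose by 1.20.

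**Figure D5:**
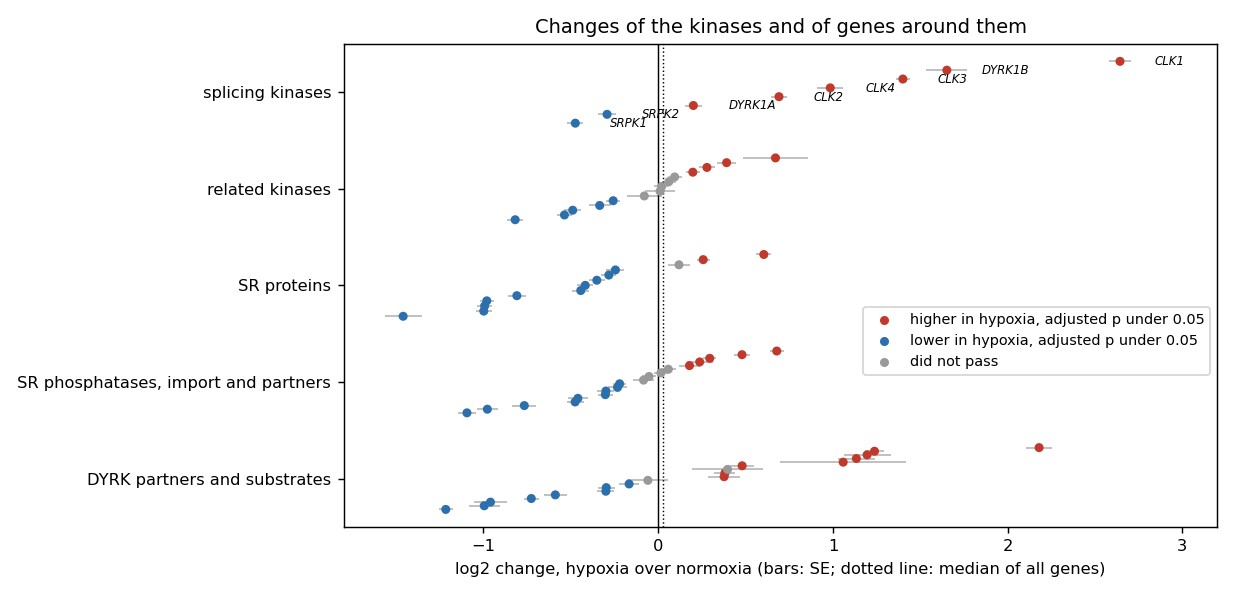
Log2 change, hypoxia over normoxia, of the 8 kinases and of the tested genes of 4 lists (points; bars give the SE), coloured by edgeR call, with the median of all genes dotted. CLK1 lies at 2.64, and SR proteins lie mostly below 0.

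By likeness of pattern, measured as the root mean square difference of centred log2 CPM over the 6 libraries among 9697 other genes with a mean of at least 10 CPM, the nearest genes to CLK1 were WSB1 (0.035) and ARRDC3 (0.045). CLK3 was nearest to ATG9A and TNS4, CLK2 to NUMA1 and CYBC1, CLK4 to LINC00346 and ENTPD4, SRPK1 to CIAPIN1 and MCU, SRPK2 to ITSN2 and R3HDM1, DYRK1A to DDX3X and WDR33, and DYRK1B, among 9698 genes, to KRBA1 and TTYH3. This is a description of 6 libraries in 2 groups, in which many genes share the same step.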

How the data were processed

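RNA of 6 libraries labelled Huh7 was sequenced, 3 from hypoxia and 3 from normoxia. RSEM, HISAT2 and cutadapt with GRCh38 are named in the submitters' processing notes, without versions, annotation release or strand setting. The authors deposited 1 table of 251062 transcripts with expected counts per library and a length per transcript; 6 further columns, of FPKM, could not be tied to single samples by the labels and were not used. Its columns carry the numbers C1 to C6, not the labels' replicate numbers, so libraries are named by these. Rows were matched to GENCODE 29 by transcript ID, and 48155 rows without a gene (6.12% to 6.39% of counts) were left out. Not every deposited length fits the GENCODE 29 model: CLK3-202 has 1854 bases in the deposit and 1914 coding bases in GENCODE 29. Exon structures and overlaps given here are those of GENCODE 29 and can differ from the transcripts counted. Expected counts were rounded, scaled by TMM, filtered with filterByExpr and tested with edgeR 4.0.16 (quasi-likelihood, Benjamini-Hochberg, R 4.3.3); fold changes are hypoxia over normoxia, and the SE was taken from the F statistic. Unproductive ratios used limma 3.58.1 on log2 counts with a pseudocount of 0.5, in genes with a mean of at least 10 counts in both classes. Transcript usage and exon 4 shares were added after values had been seen. Levels between genes are CPM per kilobase, computed from the counts and the deposited lengths. Tests were checked on simulated data. Alternatives were DESeq2 1.42.0, library totals, other filters, CPM per kilobase and leaving out each library.

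The kinases, lists and tests were chosen with earlier results of these data known. Named were all 8 kinases, up to 4 genes of each list with the largest called change, and the 2 genes nearest in pattern. Kinase rows were taken from those with at least 10% of the gene's counts or past the test at 1 CPM or more. Not every such row is described. Among those left out are CLK1-211 (log2 change 3.92) and CLK4-205 (18.5% of CLK4 counts in hypoxia, 4.40% in normoxia). Others (such as TNPO3, SRSF5 and SRSF9, CLK4-206, CPS1) were chosen after their values were seen. Replicate pairs differed by more than sampling noise (chi-square per degree of freedom 4.61 to 11.0). Labels call the samples biological replicates; nothing says that cultures were separate, so the p-values reflect only how these samples spread. Limits given for a count of 0 (3 counts) cover counting error only.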

Additional observations from a re-analysis of the deposited data

How the results depend on the processing

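The count of changed kinase genes was 8 when any 1 library was left out (lowest 8, highest 8), with DESeq2, with no filter, with a filter on CPM per kilobase and with protein-coding rows only, and 7 with library totals or with limma on CPM per kilobase, where DYRK1A did not pass. The count of changed transcript rows, 30, ran from 25 to 29 when 1 library was left out and was 30 to 33 with library totals, DESeq2, no filter or CPM per kilobase; tested as usage within the gene, which asks another question, it was 4. The count of kinases with a changed unproductive ratio, 1, was 0 to 0 when 1 library was left out and 0 with retained-intron rows alone, and 1 with summed CPM per kilobase, a mean of at least 30 or a pseudocount of 5. The ratio changes of CLK4 turned to 0.19 with summed CPM per kilobase and to 0.14 with retained-intron rows alone, and that of CLK3 to -0.093 with summed CPM per kilobase; none of these passed the limma test, and the cause was not tested. The exon 4 differences ran, when 1 library was left out, from -40.3 to -36.5 percentage points in CLK1, -7.29 to -5.69 in CLK2, -3.75 to -2.90 in CLK3 and -18.6 to -15.0 in CLK4; with summed CPM per kilobase they were -6.18 in CLK3 and -29.7 in CLK4. No paired analysis was possible because the columns carry no replicate number of the labels. CLK3-225 had 9, 0 and 0 counts in hypoxia, against 77.5, 37.1 and 28.6 in normoxia, and an SE of 1.30 on its log2 change. Alternatives on the authors' FPKM were not run and were replaced, after the data had been seen, by CPM per kilobase.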
